A study of Homo sapiens with 6 samples.

Results

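The genes described are the LIM kinases LIMK1 and LIMK2, the cofilins CFL1 and CFL2, the slingshot phosphatases SSH1, SSH2 and SSH3, and the testis-specific protein kinase TESK1. They belong to 10 symbols chosen by their link to LIMK1, and LIMK1 was chosen on the measured contrast itself, because its signal was clearly lower after ERK3 knockdown. The contrast is therefore a description for these genes, and no test of it is offered as support. The platform annotation names a probe set for 9 of the 10, among 17687 genes measured; 7 of these are described and TESK1 is not analysed here. Each of the 7 genes has a single probe set.

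The samples are A375 cells, an established human melanoma line grown in serum-containing medium. They were transfected with a predesigned small interfering RNA against ERK3 (siERK3, 3 arrays) or with a commercial negative control siRNA (siCon, 3 arrays), and total RNA was taken 3 days later for Affymetrix Clariom S Pico arrays. ERK3 is an atypical MAP kinase encoded by MAPK6. Both groups come from this single line, the labels name a single predesigned siRNA product for the knockdown, and nothing in them tells whether replicate arrays came from separate cultures. Spread and p-values therefore refer to these arrays and may be technical.

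Cofilin binds actin filaments, severs them and helps them depolymerise, so that filaments at the cell edge turn over. LIM kinases and TESK1 inactivate cofilin by phosphorylating a serine near its N-terminus, and slingshot phosphatases remove that phosphate. The PAK kinases, activated by Rac and Cdc42, phosphorylate and activate the LIM kinases; the cycle is known for its part in cell migration and cell shape. The arrays measure transcripts, and hold no value for kinase activity or for cofilin phosphorylation.

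RefSeq (GRCh38.p14) lists a pair of transcription starts for each LIM kinase gene. The 250 bases before each start are shown because LIMK1 is the member that differed between the groups and LIMK2 is its paralog; both genes lie on the plus strand, and the sequences run 5′ to 3′. The LIMK1 windows are chr7:74083554-74083803 for the upstream start and chr7:74092967-74093216 for the downstream one, and the LIMK2 windows are chr22:31212048-31212297 and chr22:31248134-31248383. Capitals mark matches, on either strand, to any of 7 motifs searched: the GC box GGGCGG, AP-1 TGACTCA, CRE TGACGTCA, E-box CACGTG, TEAD GGAATG, ETS CCGGAAGT, and the TATA box TATAAA.
LIMK1 upstream start: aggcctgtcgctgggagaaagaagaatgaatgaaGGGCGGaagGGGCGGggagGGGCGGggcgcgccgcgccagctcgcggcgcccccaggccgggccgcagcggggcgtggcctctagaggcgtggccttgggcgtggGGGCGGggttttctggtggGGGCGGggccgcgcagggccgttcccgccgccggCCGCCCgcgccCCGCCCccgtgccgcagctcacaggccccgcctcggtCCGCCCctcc
LIMK1 downstream start: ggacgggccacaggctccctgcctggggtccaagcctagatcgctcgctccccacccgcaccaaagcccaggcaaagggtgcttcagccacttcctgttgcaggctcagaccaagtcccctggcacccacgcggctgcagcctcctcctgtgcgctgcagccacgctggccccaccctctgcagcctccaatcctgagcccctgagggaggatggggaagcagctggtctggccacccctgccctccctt
LIMK2 upstream start: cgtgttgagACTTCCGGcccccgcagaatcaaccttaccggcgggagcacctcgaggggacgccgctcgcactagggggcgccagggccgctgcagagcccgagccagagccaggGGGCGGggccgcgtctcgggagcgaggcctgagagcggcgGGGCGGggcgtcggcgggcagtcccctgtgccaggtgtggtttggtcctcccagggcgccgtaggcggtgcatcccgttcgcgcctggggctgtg
LIMK2 downstream start: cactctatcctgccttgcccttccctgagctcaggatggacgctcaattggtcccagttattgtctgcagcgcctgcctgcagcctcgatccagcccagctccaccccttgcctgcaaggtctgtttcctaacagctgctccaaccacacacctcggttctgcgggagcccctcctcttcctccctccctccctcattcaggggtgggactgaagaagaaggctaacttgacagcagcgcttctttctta

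The window of the upstream LIMK1 start held 8 GC boxes and that of LIMK2 held 2, while 42.6% of all 35116 RefSeq windows of this length hold at least 1. The upstream LIMK2 window also held 1 ETS match, a motif present in 3.42% of windows. Neither downstream window held any of the 7 motifs. The AP-1, CRE, E-box, TEAD and TATA letters, found in 4.20%, 1.65%, 6.34%, 11.9% and 10.7% of all windows, were not in these 4. G and C made up 79.6% of the upstream and 68.0% of the downstream LIMK1 window, and 74.4% and 58.0% of the LIMK2 windows, against a median of 58.0% over all windows. No printed match overlaps another, and the single LIMK1 probe set does not tell the starts apart. Many GC boxes are not particular to LIMK1 among the described genes. The window of the upstream or only start held 7 in SSH1, 5 in SSH3, 3 in CFL2, 2 in CFL1 and 1 in SSH2. Any part of these motifs in the differences was not tested.

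The target of the siRNA was examined first. MAPK6 read 10.54, 10.32 and 10.67 on the siERK3 arrays and 13.45, 13.55 and 13.62 on the siCon arrays, as log2 signal. All siERK3 values lay below all siCon values. The log2 difference, siERK3 minus siCon, was -3.03 (SE 0.14), so that 12.2% of the control signal was left (95% interval 9.77% to 15.3%). Limma gave an adjusted p of 0.000133, and the exact two-sided permutation test gave 0.1, the smallest p that 3 against 3 arrays allow.

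Over all genes, array medians lay between 7.06 and 7.10. As a background level, the 95th percentile of 612 negative control probe sets was taken on each array; it lay between 7.32 and 7.56, and 45.6% to 47.6% of genes exceeded it. Of the melanocyte lineage markers, 5 of 10 measured lay above it on all 6 arrays, among them MITF and SOX10, whereas the pigment genes MLANA, PMEL, TYR and TYRP1 lay below it on every array. Endothelial and keratinocyte markers had 0 of 5 each above it, leukocyte markers 2 of 6 (CD68 and LYZ) and fibroblast markers 2 of 6 (COL1A2 and LUM). The leukocyte list averaged 6.38 to 6.58 on siERK3 arrays and 6.67 to 6.84 on siCon arrays. Its detected markers were lower in siERK3 without overlap, LYZ at -0.85 (SE 0.20; limma adjusted p = 0.0965) and CD68 at -0.47 (SE 0.13; 0.152), while PTPRC, the pan-leukocyte marker, lay below the negative controls on all 6 arrays. The fibroblast list averaged 7.06 to 7.26 on siERK3 arrays and 6.88 to 7.24 on siCon arrays, and its markers went both ways. LUM fell by 0.83 (SE 0.15; limma adjusted p = 0.0441), and COL1A2 was at -0.21 (SE 0.18). PDGFRB, above the negative controls on the siERK3 arrays only, was higher without overlap, at least 1.18-fold (limma adjusted p = 0.0631). COL1A1, DCN and PDGFRA lay below the negative controls on all 6 arrays. The part of these markers in the results was not tested.

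LIMK1 read 8.13, 8.26 and 8.28 on the siERK3 arrays and 9.72, 9.97 and 10.08 on the siCon arrays. The groups did not overlap, and the gap between the highest siERK3 and the lowest siCon value was wider than either group's own range. The means were 8.22 ± 0.08 in siERK3 and 9.93 ± 0.19 in siCon (log2, SD, n = 3 each). The difference was -1.70 (SE 0.14), which left 30.7% of the control signal (95% interval 24.5% to 38.5%). Only 6 genes of the whole table had a more negative difference, and this is the value LIMK1 was chosen for.

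LIMK1 stayed above the negative controls in both groups, but by little after knockdown. On the siERK3 arrays it exceeded the 95th percentile of the same array's negative controls by 0.82, 0.87 and 0.87 on the log2 scale. On the siCon arrays the margin was 2.16, 2.64 and 2.71. How far background signal adds to the siERK3 values was not tested.

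LIMK2, the second LIM kinase, had no such gap. It read 7.55, 7.91 and 8.12 in siERK3 and 8.16, 8.04 and 7.63 in siCon. The groups overlapped, and within each group the arrays spanned about as much as the groups together. The difference was -0.08 (SE 0.20), with siERK3 at 94.5% of siCon (95% interval 69.4% to 129%). Its margin over the negative controls was narrow, 0.23 to 0.71 in siERK3 and 0.26 to 0.70 in siCon, so a LIMK2 change would be hard to see here.

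**Figure D1:**
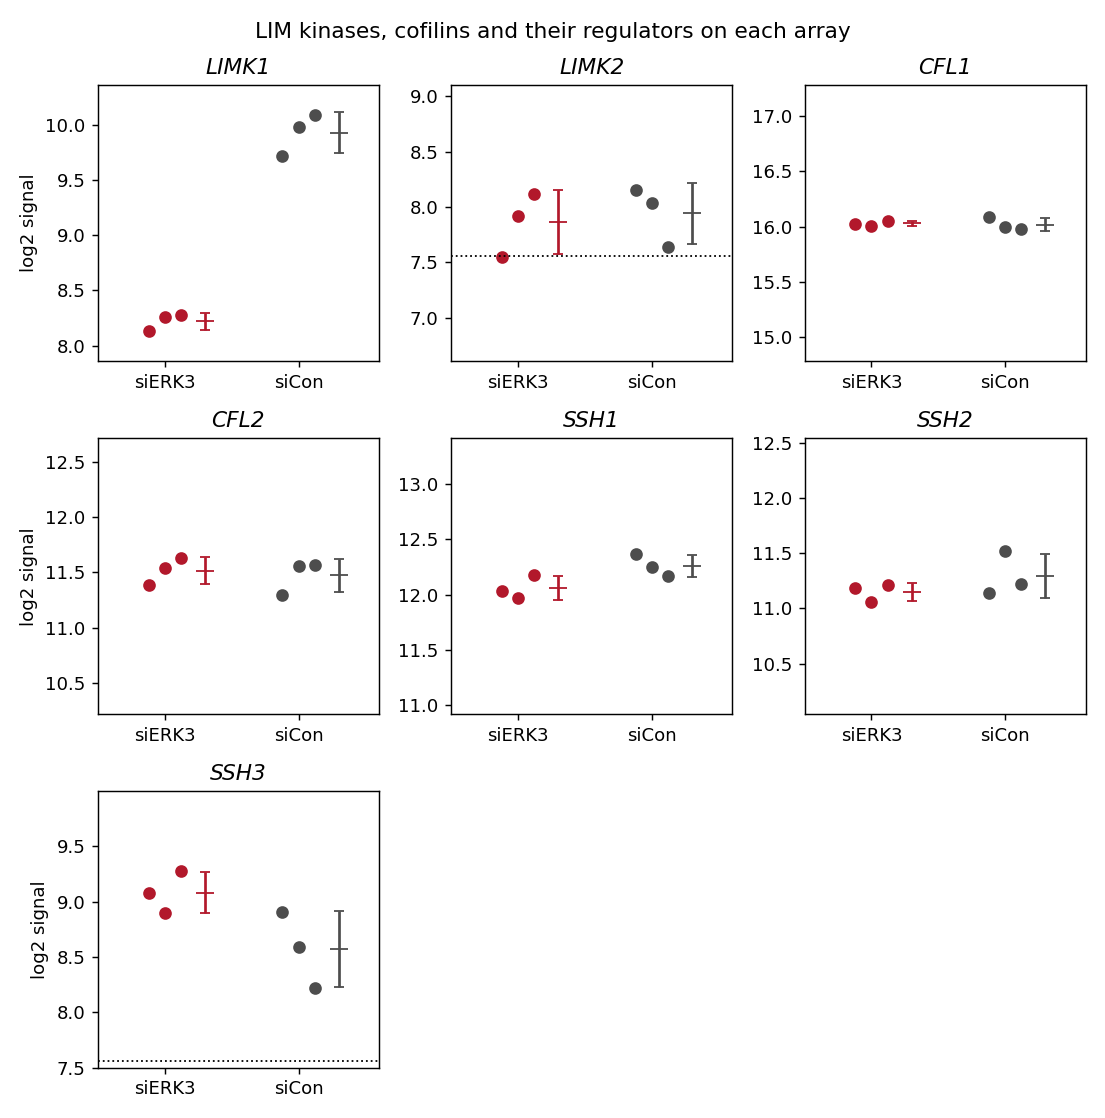
Log2 signal of the 7 described genes on each array, siERK3 left of siCon, in arrays 1 to 3 from left to right within a group; bars show the mean and SD of 3 arrays, each panel spans the same height of log2 units, and the dotted line, where it falls in range, is the highest of the arrays' negative control levels (7.56). In LIMK1 the siERK3 values, 8.13 to 8.28, lie clear of the siCon values, 9.72 to 10.08, and in the other 6 panels the groups overlap.

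The cofilins, the substrate of these kinases, were nearly level between the groups. CFL1, the non-muscle cofilin, read 16.02, 16.01 and 16.05 in siERK3 and 16.09, 15.99 and 15.97 in siCon. This was the narrowest spread of the 7 genes, and the siERK3 values fell inside the siCon range. Its difference was 0.01 (SE 0.12) and its signal ratio 101% (95% interval 83.0% to 122%). Whether the CFL1 probes were near saturation is not stated, and the deposited scale, which runs higher, does not show it. RefSeq also lists CFL1 pseudogenes, whose transcripts the probe set may not separate.

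CFL2, the cofilin best known from muscle, read 11.38, 11.53 and 11.63 in siERK3 and 11.30, 11.56 and 11.56 in siCon. The groups covered almost the same range, and the lowest array of each was array 1. The difference was 0.04 (SE 0.14; 95% interval -0.28 to 0.37).

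Among the slingshot phosphatases, SSH1 and SSH2 differed by less than the interval of the fit. SSH1 read 12.03, 11.97 and 12.18 in siERK3 and 12.36, 12.25 and 12.17 in siCon, where siERK3 3 just exceeded siCon 3. The difference was -0.20 (SE 0.13; 95% interval -0.50 to 0.10). SSH2 read 11.18, 11.06 and 11.21 in siERK3 and 11.14, 11.52 and 11.22 in siCon, a group set apart only by siCon 2. The difference was -0.14 (SE 0.15; 95% interval -0.48 to 0.19).

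SSH3 was the member after LIMK1 with the largest difference, and in the other direction. It read 9.08, 8.90 and 9.28 in siERK3 and 8.91, 8.59 and 8.22 in siCon. The groups overlapped narrowly, since siERK3 2 lay just under siCon 1. The difference was 0.51 (SE 0.19; 95% interval 0.07 to 0.95), with siERK3 at 142% of siCon. That interval is not adjusted for the number of genes, and limma did not call SSH3 over all genes. The difference was 0.34 without siCon 3, the lowest array.

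Limma called 1 of the 7 genes over all genes tested, LIMK1, and 0 higher; over all genes it called 0.956%, with 0.509% lower and 0.447% higher in siERK3. The groups did not overlap for 1 of the 7, against 19.8% of all genes and 29.7% of the 8166 genes above the negative controls on all arrays of at least 1 group. Since LIMK1 was chosen on this contrast, nothing is read from these counts. The median difference of the 7 genes was -0.08, against 0.00 over all genes.

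**Figure D2:**
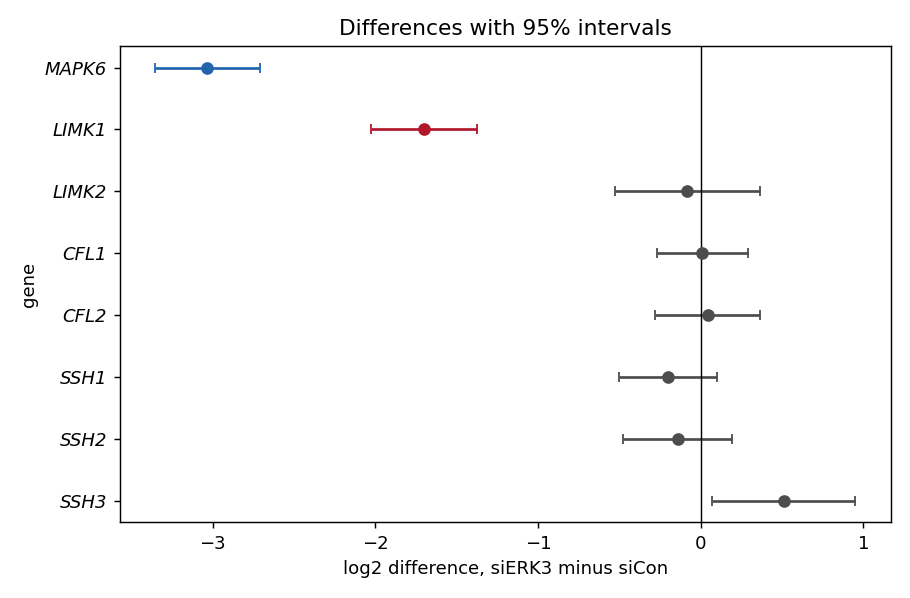
Log2 difference, siERK3 minus siCon, of MAPK6 and the 7 described genes with 95% intervals of limma's fit (3 arrays a group). The intervals of MAPK6 (-3.36 to -2.71), LIMK1 (-2.03 to -1.38) and SSH3 (0.07 to 0.95) do not cross 0, and those of the other 5 genes do.

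The genes around the LIM kinases were followed in 10 lists with 149 genes, of which 137 were measured. Limma called 4 of the 137, GEM, GMFG and CCN1 lower and TPM1 higher, and 133 were not called. Over all genes it called 169 of 17687, or 0.956%. Before adjustment, 13 higher and 13 lower of the 137 passed 0.05, beside 13.5% of all genes (2384 of 17687). The lists differ from all genes in signal level. Of the 137, 97 lay above the negative controls on all arrays of at least 1 group, against 8166 of 17687. The share passing at like levels was not computed, so nothing is read from this count. The 10 lists were drawn up with earlier results of these data known.

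Upstream of the LIM kinases, 3 of the PAK kinases (PAK1, PAK3 and PAK6) are not analysed here, and PAK5 and CDC42BPG lay below the negative controls on all arrays. Of the 10 measured kinases known to act on LIM kinases or on slingshot (PAK, MRCK, MK2 and PKD families), limma called 0, and 0 reached an unadjusted p under 0.05. The differences ran from -0.19 to 0.35 with a median of -0.03. The 2 with the largest differences were the protein kinases D, PRKD1 at 0.35 (SE 0.17) and PRKD2 at 0.33 (SE 0.22). PAK2 was at -0.09 (SE 0.14) and PAK4 at -0.14 (SE 0.18).

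The small GTP-binding proteins GEM, RRAD and RND3 included 1 called gene among 3 measured. RRAD lay below the negative controls on all 6 arrays, so its change cannot be seen. GEM, which is known to restrain calcium channels, read 6.69, 6.21 and 6.43 in siERK3 and 8.10, 8.42 and 8.56 in siCon. The groups were more than 1 log2 unit apart, and all siERK3 values lay below the negative controls' 95th percentile, so the change is a bound: GEM was at least 1.99-fold lower (limma adjusted p = 0.00420). RND3, which binds GTP without hydrolysing it, was at 0.08 (SE 0.16).

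Of 7 LIM kinase-binding proteins limma called 0, and 2 higher and 1 lower passed 0.05 before adjustment. HSP90AA1, a chaperone that stabilises LIM kinases, was at 0.50 (SE 0.18; adjusted p = 0.278 in limma), with 15.53, 15.67 and 15.20 in siERK3 and 15.21, 14.70 and 14.98 in siCon. The groups met at siERK3 3 and siCon 1. LATS1, a Hippo pathway kinase that binds LIMK1, was at 0.36 (SE 0.14; adjusted p = 0.307 in limma).

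Of 9 other cofilin kinases, phosphatases and cofactors limma called 0, and 1 higher passed 0.05 before adjustment. TESK2, the only kinase among them, lay below the negative controls on all 6 arrays, so its change cannot be seen. PDXP, CAP1, WDR1 and CORO1A of this list are not analysed here. CAP2, which works with cofilin in recycling actin monomers, was at 0.47 (SE 0.18; adjusted p = 0.300 in limma) and PPP1CA, a catalytic subunit of protein phosphatase 1, at 0.26 (SE 0.13; adjusted p = 0.435 in limma). The median of the list was 0.22.

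Relatives of cofilin that share its actin-binding fold, together with the gelsolin family of severing proteins, held 1 called gene among 14. GMFG, which removes Arp2/3 complex from filament branches, read 6.46, 7.10 and 6.95 in siERK3 and 7.92, 8.97 and 8.43 in siCon. No siERK3 array exceeded the negative controls' 95th percentile, so GMFG was at least 2.10-fold lower (limma adjusted p = 0.0373). The call held without siCon 1 (adjusted p = 0.0466) and was lost without any other single array, with adjusted p from 0.0760 without siCon 2 to 0.136 without siERK3 3.

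In the same family DBN1, the actin-bundling protein drebrin, read 11.84, 11.93 and 11.69 in siERK3 and 11.31, 11.18 and 11.11 in siCon. The groups were clear of each other, and the difference was 0.62 (SE 0.13; limma adjusted p = 0.0795). A further pair of family members, picked out after their values were seen, were also clear of overlap. TWF1, the monomer-binding protein twinfilin, was at -0.58 (SE 0.14; adjusted p = 0.109 in limma), and GSN, the severing protein gelsolin, at 0.47 (SE 0.13; adjusted p = 0.144). DSTN, the cofilin paralog also called ADF, was at 0.08 (SE 0.15). In all, 10 of the 14 did not overlap, 6 higher and 4 lower in siERK3, or 71.4%; among the 11 members above the negative controls on all arrays of a group it was 7. Over all genes the share without overlap was 19.8%, and 29.7% at such levels. The list has the highest share of the 10, which run down to 10.0%. The lists were drawn up with earlier results of these data known, so nothing is read from that rank. Over all 10 lists 41 of 137 genes did not overlap, or 29.9%, and 33 of the 97 at such levels.

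Of 20 genes for actin monomers and filament assembly limma called 0, with 1 lower at an unadjusted p under 0.05, DAAM1, which lay below the negative controls on all 6 arrays. FMNL2, a formin, was at 0.31 (SE 0.15; adjusted p = 0.434 in limma) and CAPZA2, a capping protein subunit, at -0.30 (SE 0.18; adjusted p = 0.548). The cytoplasmic actins ACTB and ACTG1 were at -0.15 (SE 0.18) and -0.07 (SE 0.13). Both of their 95% intervals crossed 0.

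Of 14 genes for myosin II, its regulators and linkers of membrane to actin limma called 0, and 2 higher and 1 lower passed 0.05 before adjustment. RDX, the membrane-to-actin linker radixin, averaged 11.91 ± 0.09 in siERK3 and 11.30 ± 0.08 in siCon (SD, n = 3 each), and its lowest siERK3 array, 11.82, lay above its highest siCon array, 11.37. Its difference was 0.61 (SE 0.13; limma adjusted p = 0.0773). MYL9, a regulatory light chain of myosin II, was at 0.49 (SE 0.15; adjusted p = 0.214 in limma).

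The coactivators MRTF and their partner SRF respond to the pool of free actin, and their factors and targets held 2 called genes of 19. TPM1, the filament-coating protein tropomyosin, read 11.00, 10.85 and 10.77 in siERK3 and 9.99, 10.16 and 10.12 in siCon. It rose by 0.78 on the log2 scale (SE 0.13; limma adjusted p = 0.0373), and the call was lost in each of the 6 fits that left out 1 array, with adjusted p from 0.0760 without siCon 2 to 0.161 without siERK3 1. CCN1, a secreted matricellular protein, read 8.90, 8.28 and 8.20 in siERK3 and 9.56, 9.50 and 9.72 in siCon. It fell by 1.13 (SE 0.20; limma adjusted p = 0.0427), and the call held without siERK3 1 (adjusted p = 0.0292) and was lost without any other single array (0.0914 without siCon 2 to 0.154 without siERK3 3).

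CCN2, the relative of CCN1, was at -0.89 (SE 0.23; adjusted p = 0.129 in limma), with 1 of 3 siERK3 arrays above the negative controls. MRTFA and MRTFB, the coactivators themselves, were at -0.05 (SE 0.16) and 0.23 (SE 0.19), and SRF lay above the negative controls on 0 siERK3 arrays and 1 siCon array. The median of the list was -0.08, and 3 higher and 3 lower passed 0.05 before adjustment.

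**Figure D3:**
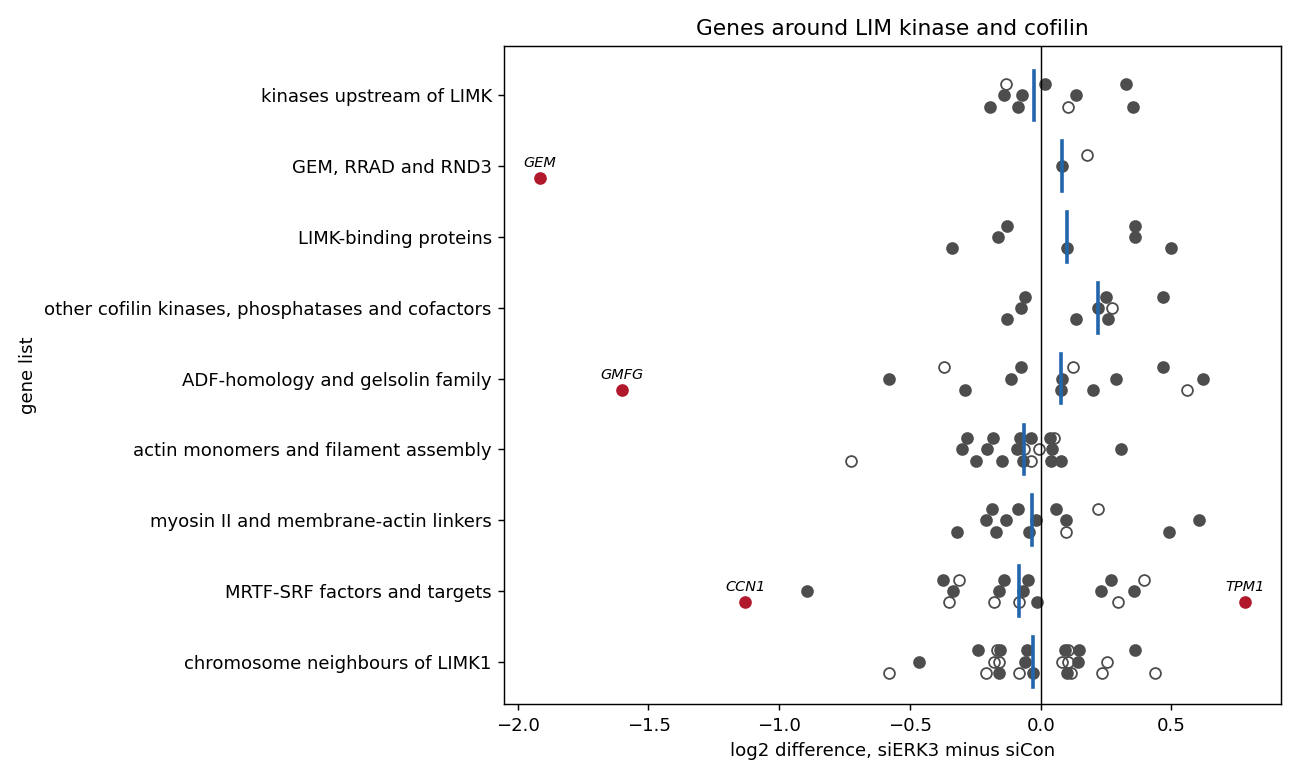
Log2 difference, siERK3 minus siCon, of each measured gene in 9 of the 10 lists; filled points lay above the negative controls on all 3 arrays of at least 1 group, red points were called by limma, and blue bars are list medians. GEM, GMFG and CCN1 lie at -1.92, -1.60 and -1.13 and TPM1 at 0.78; GEM and GMFG were below the negative controls in siERK3, so their points are fitted values and not bounds.

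Of the 25 listed genes that lie beside LIMK1 on chromosome 7, 12 lay above the negative controls on all arrays of at least 1 group, and no change of the others can be read. Limma called 0 of the 25, 1 higher and 2 lower passed 0.05 before adjustment, and the differences ran from -0.58 to 0.44 with a median of -0.03. The ends of that range, METTL27 and NCF1, are not among the 12, and METTL27 is one of those lower before adjustment. The 12 ran from -0.47 to 0.36. EIF4H, the nearest listed gene on the downstream side and a translation initiation factor, read 14.32, 14.38 and 14.27 in siERK3 and 14.44, 14.62 and 14.39 in siCon. Its difference was -0.16 (SE 0.13; 95% interval -0.46 to 0.14), and its groups did not overlap, with siERK3 lower.

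On the other side ELN, the elastin gene, was at 4.98 in siERK3 and 4.88 in siCon, below the negative controls in both, so its change cannot be seen. Of the neighbours above the negative controls, STX1A, a syntaxin of vesicle fusion, had the largest difference, -0.47 (SE 0.18; adjusted p = 0.297 in limma). NSUN5, an RNA methyltransferase, was at 0.36 (SE 0.15; adjusted p = 0.334 in limma), and RefSeq lists pseudogenes of NSUN5, GTF2I and NCF1, whose values are uncertain for that reason.

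**Figure D4:**
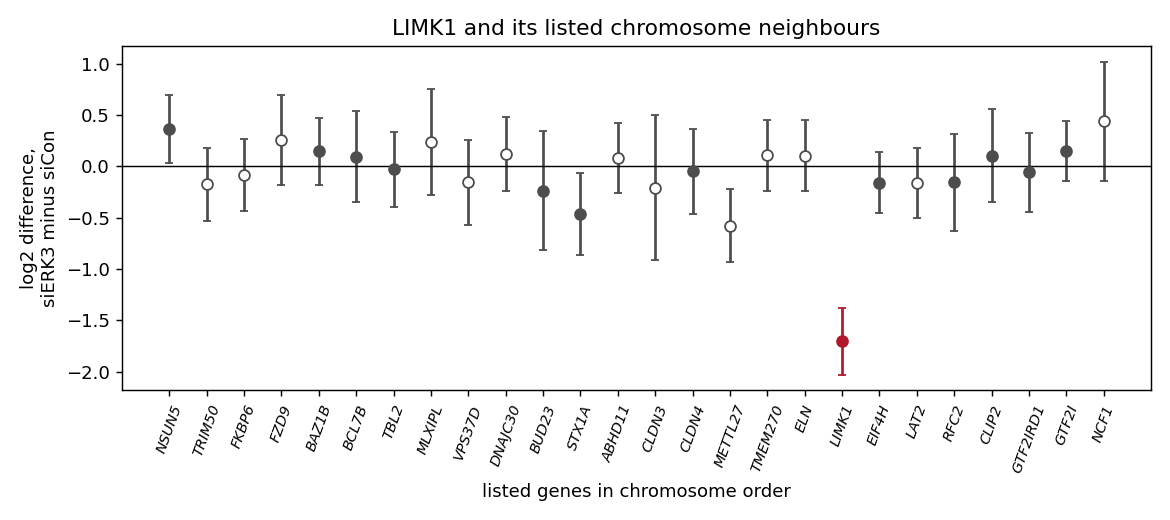
Log2 difference, siERK3 minus siCon, with 95% intervals of limma's fit, for LIMK1 (red) and its 25 listed neighbours in RefSeq chromosome order; positions are ranks and not distances, and open points did not lie above the negative controls on all arrays of either group. LIMK1 stands at -1.70 and the neighbours between -0.58 and 0.44, or between -0.47 and 0.36 for the filled points.

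The genes whose pattern over the 6 arrays was closest to that of LIMK1 were found by centring each gene on its own mean and taking the root mean square difference from LIMK1, among 8165 genes above the negative controls on all arrays of at least 1 group. The measure includes the difference between the groups, so it picks genes that were lower in siERK3 by a like amount, and it carries no p. The closest was ADAM19, a membrane-bound metalloprotease, with a root mean square difference of 0.07 log2 units. It read 7.64, 7.79 and 7.85 in siERK3 and 9.08, 9.48 and 9.60 in siCon, the same order of arrays as LIMK1. In siERK3 it lay close above the negative control levels, which were 7.32, 7.39 and 7.40 on these arrays. Those levels rise in the same order, and how far background sets the order in siERK3 was not tested.

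Next came NT5E, the ectoenzyme that makes adenosine, and PLEKHB2, a protein of recycling endosomes, each at 0.14, then TFPI, a coagulation inhibitor, at 0.17. Their differences were -1.63 for ADAM19, -1.58 for NT5E, -1.92 for PLEKHB2 and -1.53 for TFPI (SE 0.17, 0.16, 0.14 and 0.15). CCL20, a chemokine, came next by its listed values, but it lay below the negative controls on all siERK3 arrays, so its likeness is not measured; it was at least 2.19-fold lower.

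**Figure D5:**
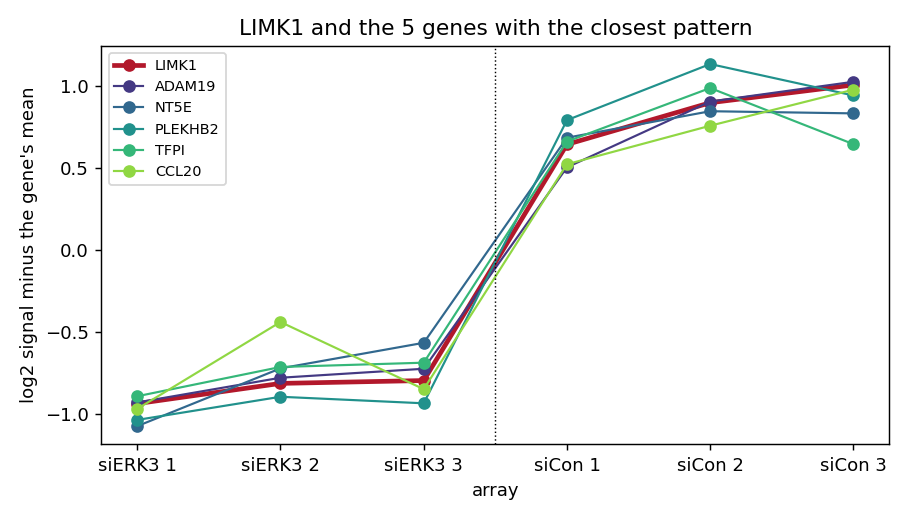
Log2 signal minus each gene's mean over the 6 arrays, for LIMK1 (thick red line) and the 5 genes closest to it by listed values (CCL20 below the negative controls in siERK3), siERK3 arrays left of siCon arrays; lines only join the points of a gene. LIMK1 runs from -0.94 to -0.80 on the siERK3 arrays and from 0.65 to 1.01 on the siCon arrays.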

How the data were processed

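Log2 signal as deposited by the authors was used, for 24351 probe sets on each of 6 arrays. No label names the scale, and log2 was inferred from the values, which run from 1.84 to 19.4. How the arrays were background-corrected, summarised and normalized is not stated in what was used. Between 1.46% and 1.61% of probe sets exceed 16, so the zero point, and any stretch of the scale on which folds would depend, are unknown. Probe sets with exactly 1 symbol in the platform annotation gave 17687 genes, the brightest being taken for 20 genes with several. No filter or pseudocount was used. Limma 3.58.1, run in R 4.3.3 without covariates, gave siERK3 minus siCon for each gene. P-values were adjusted by Benjamini and Hochberg's method over the 17687 genes and called under 0.05; intervals are 95% intervals of that fit. Motifs were searched in Python 3.11.15 and plots drawn with matplotlib 3.10.9. Where a gene did not exceed the negative controls' 95th percentile on any array of a group, the fold is a lower limit, taken against the higher of that level and its own value on each array. The number of arrays limits the precision.

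The members, lists and motifs were chosen with earlier results of these data known. Genes were named by rule: MAPK6, all members but a pair, every called list gene, the 2 largest differences per list among genes above the negative controls on all arrays of a group, the nearest listed neighbours and the 5 genes closest to LIMK1. Further list genes (PAK2, PAK4, TWF1, GSN, DSTN, DAAM1, ACTB, ACTG1, MRTFA, MRTFB, SRF) and the markers were added to the text later, with their values known. Also named outside the rule, with their values known, were PAK5, CDC42BPG, RRAD, TESK2, METTL27, NCF1 and GTF2I. Of the list genes, 12 are not analysed here. That pair of members and 1 of the 10 lists, which the totals over lists include, are not reported here. Alternatives were quantile, median and cyclic loess normalization, the mean of probe sets, a variance trend with robust moderation, array weights, a filter at the 30th percentile of level, the replicate number as a block, and each array left out. RefSeq sequences matched the measured members; in 2745 of 2745 pairs of overlapping opposite windows the strands agreed.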

Additional observations from a re-analysis of the deposited data

How the results depend on the processing

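The LIMK1 difference was -1.73 to -1.70 in 8 alternatives and -1.81 to -1.62 in the 6 fits without 1 array. The members called numbered 1 in all 14. The mean of probe sets, the variance trend, the filter and the block cannot change the difference of a gene with 1 probe set. For LIMK1 they gave -1.70 again. LIMK1 was chosen on this contrast, so its stability is no support. MAPK6 passed in all 14, at -3.07 to -3.03 in the alternatives and -3.11 to -2.94 without 1 array. No difference of the 7 genes moved by more than its spread between replicates. Leaving out 1 of 3 arrays cannot move it that far, so those 6 fits are no test of this. LIMK2, CFL1 and CFL2 changed sign in at least 1 fit without 1 array, and CFL1 with quantile and cyclic loess normalization. The count of genes called over all genes, 169 as reported, was 722 with a variance trend and robust moderation, 365 with the filter at the 30th percentile of level, 33 with the replicate block and 23 to 60 without 1 array. The pathway genes called, 4 as reported, were 11 with the trend, 2 with the replicate block and 1 to 2 without 1 array; fewer arrays enter those last fits, and the other causes were not tested. Under the block TPM1 and CCN1 lost their calls (limma adjusted p = 0.135 and 0.102), while GEM passed in every alternative and every fit without 1 array. The list with GEM was drawn up with earlier results of these data known, so its stability is no support either. No pairing by replicate number was visible: deviations of same-numbered arrays correlated at 0.05, -0.12 and -0.04 across genes. Of the 6 arrays, 1 was closest to the array of its own number. With 3 arrays a group this cannot exclude paired cultures, and the labels do not state any. Signal over background limits what can be read of LIMK2, and of LIMK1, ADAM19, TFPI, GEM, GMFG and CCL20 in siERK3.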
